A study of Mus musculus with 8 samples.

Results

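Antigen presentation genes, those of the MHC class I and class II pathways, were followed in inguinal white adipose tissue (iWAT) by RNA-seq and Ribo-seq. The members were the genes whose symbol starts with H2-, the mouse MHC, together with B2m, Tap1, Tap2, Tapbp, Cd74 and Ciita, which gave 35 of the 17264 genes in the tables. Of these, 23 belonged to class I (19 heavy chain genes and 4 partners), 11 belonged to class II, and 1, H2-Ke6, carries an H2 symbol by position and encodes a steroid dehydrogenase. Choosing them used gene symbols and no measured value.

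The study asked how loss of the m6A reader Ythdf1 in fat cells changes iWAT after cold. Y1CTL mice were male C57BL/6 Ythdf1 flox/flox animals aged 9 weeks, and Y1cKO mice also carried Adipoq-Cre, which deletes floxed exon 4 in adipocytes alone. Both groups were kept at 4 °C for 7 days, so no library shows tissue without cold. RNA-seq, which reads transcript levels, and Ribo-seq, which reads the mRNA stretches covered by ribosomes, each had 2 libraries per genotype, and whether these came from separate animals is not stated, so that a p-value here reflects library-to-library spread alone, possibly of a technical kind.

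Class I molecules present peptides from inside the cell to CD8+ T cells and are made by nearly every cell type. A class I heavy chain pairs with beta-2 microglobulin, and the TAP transporter and tapasin bring peptides to it. Class II molecules are alpha and beta chain pairs that present engulfed material to CD4+ T cells, and their genes are switched on by the coactivator Ciita, chiefly in B cells, dendritic cells and macrophages. In the C57BL/6 strain the alpha partner of H2-Eb1 is defective, and H2-Ea was not analysed here. The iWAT sample is whole tissue, while Cre acts in adipocytes, and B cells, dendritic cells and macrophages are not its target in either group. In bulk tissue, fewer cells of a type and less RNA per cell cannot be told apart.

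Promoters of both classes are known for a shared upstream module that ends in a Y box, the letters CTGATTGG, which the factor NF-Y binds. RefSeq (GRCm38.p6) gave a promoter for 27 of the 35 members (18 of class I and 8 of class II), read here over the 250 bases before the start and on both strands. CTGATTGG lay in the promoter of 4 class II genes (H2-Aa, H2-Eb1, H2-Eb2 and H2-Oa) and 7 class I genes (H2-D1, H2-M10.1, H2-M9, H2-Q6, H2-Q7, H2-T23 and Tap1), and in 3.83% of all 32841 promoters. The letters GAAA followed after any 2 bases by GAAA, part of the element read by interferon regulatory factors, lay in the promoters of B2m, H2-T22 and H2-T23, of 0 class II genes and in 2.98% of all promoters. The motifs overlapped in 0 members' promoters, and 1 gene, H2-T23, held both. A match describes letters and is not a measured binding site. The stretches below are shown because they set the class II promoters beside those of 3 class I members, with the motif in capitals, 5′ to 3′ along the gene's strand and ending before the start site (H2-Aa chr17:34287857-34287919, minus strand, H2-Eb1 chr17:34305760-34305822, plus strand, H2-Eb2 chr17:34325527-34325589, plus strand, H2-Oa chr17:34092288-34092350, plus strand, H2-D1 chr17:35262996-35263058, plus strand, H2-T23 chr17:36032736-36032798, minus strand and B2m chr2:122147503-122147567, plus strand). In H2-D1 and H2-T23 the letters CTGATTGG lie on the other strand, so the capitals read as their reverse complement. Whether these matches belong to the shared module was not tested.
H2-Aa: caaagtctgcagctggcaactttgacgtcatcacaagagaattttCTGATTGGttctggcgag
H2-Eb1: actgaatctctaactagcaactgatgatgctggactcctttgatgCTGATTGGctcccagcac
H2-Eb2: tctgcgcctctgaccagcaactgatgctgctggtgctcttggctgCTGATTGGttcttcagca
H2-Oa: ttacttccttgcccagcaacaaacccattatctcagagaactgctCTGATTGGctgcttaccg
H2-D1: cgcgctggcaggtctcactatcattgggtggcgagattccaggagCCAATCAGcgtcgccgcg
H2-T23: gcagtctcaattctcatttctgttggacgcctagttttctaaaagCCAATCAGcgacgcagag
B2m: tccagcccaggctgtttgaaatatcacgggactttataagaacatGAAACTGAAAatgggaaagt
The first base of the motif lay 51 bases before the start in H2-Aa, 62 in H2-Eb1, 103 in H2-Eb2, 46 in H2-Oa, 53 in H2-D1, 52 in H2-T23 and 139 in B2m.

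Values are RPKM, that is reads scaled to gene length and to library size, as the authors deposited them, over transcript length for RNA-seq and coding length for Ribo-seq. The libraries held 3958284 to 16429015 reads in RNA-seq, with both Y1CTL libraries below both Y1cKO libraries, and 7364523 to 11862838 in Ribo-seq. A gene was tested if it averaged 0.5 RPKM or more over the 4 libraries of an assay. Tests used log2(RPKM + 0.5), so that fold changes of low genes come out too small. This kept 29 members in RNA-seq (17 of class I and all 11 of class II), 29 in Ribo-seq, where H2-Q2 passed and H2-T10 did not, and 28 for translational efficiency (TE), the Ribo-seq change less the RNA-seq change. H2-M2, H2-Eb2, H2-Oa and H2-Ob passed in RNA-seq through 1 library, Y1CTL replicate 2. Ythdf1 itself was read over the whole gene and not the deleted exon alone. By RNA-seq it had 8.01 and 11.5 RPKM in Y1CTL and 7.17 and 7.98 RPKM in Y1cKO, so in this whole tissue its transcript was not absent. The lower Y1CTL value (8.01 RPKM, 72 reads) and the higher Y1cKO value (7.98 RPKM, 298 reads) were nearly equal. A Y1cKO pair wholly under the Y1CTL pair was seen for 10.7% of all genes tested in RNA-seq. A loss of Ythdf1 transcript therefore cannot be read from these values. Markers of adipocytes were abundant in every library, with a sum over 8 genes of 7217 to 12922 RPKM by RNA-seq.

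No member changed between genotypes at an adjusted p under 0.05 by limma in any of the 3 comparisons, as was true of all genes (0% of 12435 tested in RNA-seq, 0% of 12602 in Ribo-seq and 0% of 11792 for TE). At an unadjusted p under 0.05, RNA-seq had 1 member, Tapbp (background over all genes 11.8%), Ribo-seq had 2, H2-Oa and H2-T24 (background 2.75%), and TE had 0 (background 8.66%). Voom on the recovered reads also gave 0 members at an adjusted p under 0.05. At an unadjusted p under 0.05 it gave 3 in RNA-seq (B2m, H2-Q6 and Tap1), 2 in Ribo-seq and 3 for TE. The share over all genes at that unadjusted p is not given for voom, so these counts have no background. An exact two-sided test of 2 libraries against 2 cannot go below p = 0.333. What the members did show was a difference between assays and a single control library that stood apart for class II, described next.

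The class II transcripts were high in 1 RNA-seq library. Ciita (ENSMUSG00000022504), the coactivator that turns the class II genes on, had 1.13 and 10.5 RPKM in Y1CTL and 1.87 and 1.24 RPKM in Y1cKO by RNA-seq. Y1CTL replicate 2 stood above the other 3 libraries, 7.43-fold over their mean, and the other Y1CTL library lay below both Y1cKO libraries. The chains of the presenting molecule followed. H2-Aa (ENSMUSG00000036594), the alpha chain of I-A, had 45 and 158 RPKM in Y1CTL and 64.8 and 45.2 RPKM in Y1cKO. H2-Ab1 (ENSMUSG00000073421), its beta chain, had 44.6 and 178 RPKM in Y1CTL and 57.5 and 54.3 RPKM in Y1cKO. H2-Eb1 (ENSMUSG00000060586), the I-E beta chain, had 27.5 and 72.1 RPKM in Y1CTL and 30.2 and 24.4 RPKM in Y1cKO. In each of these genes replicate 1 of Y1CTL lay among or near the Y1cKO values, so the groups overlapped. Cd74 (ENSMUSG00000024610), the invariant chain that guards the class II groove until peptide loading, had 109.7 and 467 RPKM in Y1CTL and 124 and 92.7 RPKM in Y1cKO, which again put Y1CTL replicate 2 alone at the top.

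The peptide editors showed the same library apart, and by wider margins in part. H2-DMa, the alpha chain of the peptide exchange factor H2-DM, had 1.83 and 9.72 RPKM in Y1CTL and 3.85 and 1.95 RPKM in Y1cKO by RNA-seq. H2-DMb1, one of its beta chains, had 3.96 and 10.2 RPKM in Y1CTL and 3.85 and 3.99 RPKM in Y1cKO. H2-DMb2 (ENSMUSG00000037548), the other beta chain, had 1.24 and 19.4 RPKM in Y1CTL and 0.633 and 0.427 RPKM in Y1cKO, and it was the single class II gene whose Y1cKO pair lay wholly under the Y1CTL pair. H2-DMb2 had 7 and 137 reads in Y1CTL and 11 and 10 reads in the deeper Y1cKO libraries. The order of Y1CTL replicate 1 and Y1cKO thus rested on few reads. H2-DMb1 and H2-DMb2 are close copies, so reads may have been split between them, and their relation to each other is uncertain. H2-Oa and H2-Ob, the chains of H2-O, which restrains H2-DM in B cells, had 30 and 83 reads in that library and at most 7 in any other RNA-seq library. H2-Oa had 0 and 5.56 RPKM in Y1CTL and 0.527 and 0 RPKM in Y1cKO, and H2-Ob had 0 and 10.1 RPKM in Y1CTL and 0.198 and 0.147 RPKM in Y1cKO. A count of 0 allows up to 3 reads, which is 0.697 RPKM for H2-Oa and 0.459 RPKM for H2-Ob in Y1CTL replicate 1, a limit that covers counting error alone. H2-Eb2, a further beta chain gene named here after its values were seen, had 0.0745 and 4.69 RPKM in Y1CTL and 0.0966 and 0.108 RPKM in Y1cKO, with 79 reads in Y1CTL replicate 2 and 11 in the other 3 libraries together.

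H2-Eb2, H2-Oa and H2-Ob passed the filter through Y1CTL RNA-seq replicate 2 and so had to be high there. Of the class II genes, 8 averaged at least 0.5 RPKM over the 3 remaining RNA-seq libraries, and all 8 were higher in Y1CTL replicate 2 than in each of those, as were 20.9% of the 12103 genes that passed in this way. The log2 values of the 8 lay above the mean of the other 3 by a median of 1.79 and a range of 1.27 (H2-DMb1) to 4.02 (H2-DMb2), and over all genes the median was -0.13. On the RPKM scale the fold over the mean of the other 3 was 3.05 for H2-Aa, 3.41 for H2-Ab1, 2.63 for H2-Eb1, 4.29 for Cd74 and 25.3 for H2-DMb2. Class II took 0.131% (95% Wilson interval 0.128 to 0.134%) of the reads in that library. In the other RNA-seq libraries it took from 0.0304% (95% Wilson interval 0.0295 to 0.0312%) in Y1cKO replicate 2 to 0.0390% (95% Wilson interval 0.0379 to 0.0401%) in Y1cKO replicate 1.

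Markers of other cell types moved with this library. In Y1CTL RNA-seq replicate 2 the 8 B cell markers summed to 184 RPKM, with 0 of the 8 at 0, and 1.21 to 1.72 RPKM in the other RNA-seq libraries, where up to 4 of the 8 were at 0. For 8 T cell markers it was 113 RPKM against 1.58 to 3.20 RPKM, with up to 4 at 0 in the others. Each of the 8 B cell and 8 T cell markers was highest in this library. Dendritic cell markers summed to 33.1 RPKM against 8.80 to 11.7 RPKM, but 5 of the 8 were highest in it and Zbtb46 was lowest, and without Ccr7, which lymphocytes also express, the sum was 20.7 RPKM against 8.80 to 11.6 RPKM. Macrophage markers, at 87.3 RPKM, lay within the 77.6 to 112 RPKM of the others. Adipocyte markers were lower in it, at 7217 RPKM against 10586 to 12922 RPKM, and endothelial markers were at 228 RPKM against 279.8 to 331 RPKM. Skeletal muscle markers marked another library, Y1cKO RNA-seq replicate 1, with 237 RPKM against at most 2.19 RPKM elsewhere in RNA-seq, and class II was not set apart there. The part of these cell types in the class II levels was not tested.

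**Figure D1:**
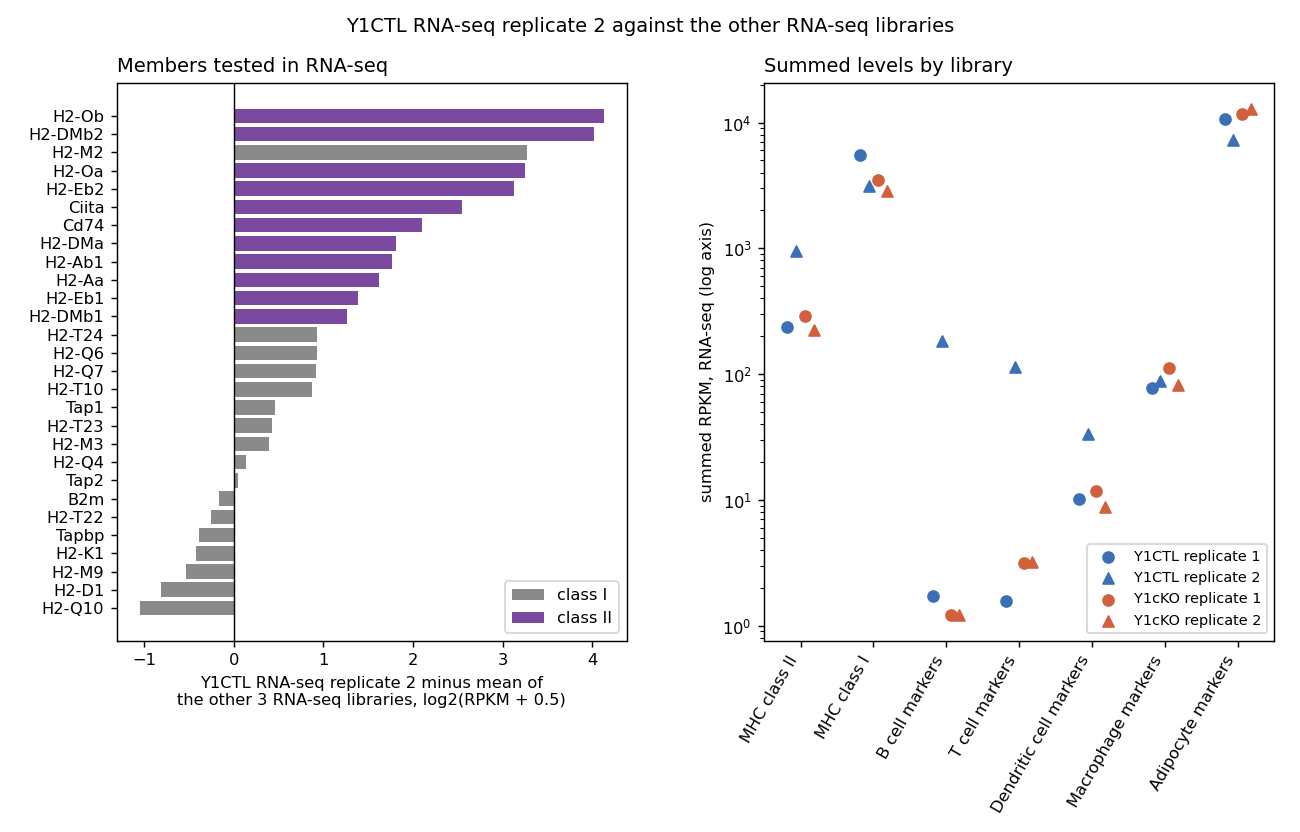
Left, each class I (gray) and class II (purple) gene tested in RNA-seq, as log2(RPKM + 0.5) in Y1CTL replicate 2 less the mean of the other 3 libraries. Right, summed RNA-seq RPKM per library (log axis) of both classes and of 5 marker lists, circles for replicate 1 and triangles for replicate 2. All 11 class II bars lie at 1.27 or above, 3 of them (H2-Eb2, H2-Oa and H2-Ob) genes that were tested through this library, and Y1CTL replicate 2 has the highest sums for class II and for B cell, T cell and dendritic cell markers and not for macrophage markers.

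The class I pathway genes that lie among the class II genes did not stand apart to that extent. In the RefSeq order (GRCm38.p6) Psmb9, Tap1, Psmb8 and Tap2 follow one another between H2-DMb1 and H2-Ob. Tap1, a subunit of the peptide transporter, stood 1.38-fold over the mean of the other 3 RNA-seq libraries in Y1CTL replicate 2, and Tap2, its partner, 1.03-fold. Psmb8 and Psmb9, immunoproteasome subunits, lay between 9.72 and 23.6 RPKM in all 4 libraries, with Y1cKO replicate 1 the highest for both. On either side of the group, H2-DMb1 stood 2.59-fold above, and H2-Ob had 83 reads in that library against 8 in the other 3 together.

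The genotype comparison of class II transcripts therefore depended on which control library was used. The 8 class II genes that passed in the other 3 libraries all had a lower RNA-seq mean in Y1cKO. Of all 12103 genes that passed in this way, 3777 were lower. The median log2 fold change of the 8 was -0.69, beside 0.18 over all genes that passed in this way. With H2-Eb2, H2-Oa and H2-Ob, for which the filter favored a lower Y1cKO mean, the median was -1.06 (0.17 over all genes tested). H2-DMb2 was the single gene of the 11 that did not overlap between groups (background for both Y1cKO libraries below both Y1CTL libraries 10.7%). The values were -0.64 for H2-Aa (standard error 0.58, adjusted p = 0.654 from limma), -0.67 for H2-Ab1, -0.70 for H2-Eb1, -1.08 for Cd74 (standard error 0.65, adjusted p = 0.530 from limma) and -1.06 for Ciita. H2-DMb2 had a log2 fold change of -2.52 (standard error 1.08, adjusted p = 0.445 from limma). Without Y1CTL replicate 2 the class II median was 0.12, 4 of the 8 class II genes that then passed the filter were higher in Y1cKO, and limma called 0 members. Without Y1CTL replicate 1, which left replicate 2 as the only control and assumed it to vary like the Y1cKO pair, the median was -2.12 and limma called 12 members, 10 of them class II, among 5.33% of all genes. H2-Eb2, H2-Oa, H2-Ob and H2-M2, tested through replicate 2 alone, were 4 of the 12.

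Ribo-seq did not show this library. The 11 class II genes were steady across the 4 Ribo-seq libraries, with a median coefficient of variation of 11.5% beside 13.5% over all genes tested. In RNA-seq it was 80.4% over the 8 class II genes that passed without the high library, beside 22.5% over all genes that did. Cd74 had 4472 and 4681 RPKM in Y1CTL and 4230.0 and 4992 RPKM in Y1cKO by Ribo-seq. For H2-Aa the values were 1403 and 1327 RPKM in Y1CTL and 1656 and 1685 RPKM in Y1cKO. H2-Ab1 gave 866 and 932 RPKM in Y1CTL and 918 and 979 RPKM in Y1cKO, and H2-Eb1 gave 1174 and 1173 RPKM in Y1CTL and 1205 and 1257 RPKM in Y1cKO. These 4 genes were of the same order of abundance in all libraries, and replicate 2 of Y1CTL lay beside replicate 1. Ciita had 8.64 and 7.76 RPKM in Y1CTL and 7.71 and 8.85 RPKM in Y1cKO, which made it the lowest of the class in every Ribo-seq library.

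The editors were steady too. H2-DMa had 76.9 and 67.3 RPKM in Y1CTL and 78.6 and 86.2 RPKM in Y1cKO by Ribo-seq, H2-DMb1 had 13.3 and 13.2 RPKM in Y1CTL and 13.2 and 17.7 RPKM in Y1cKO, and H2-DMb2 had 26.5 and 26.5 RPKM in Y1CTL and 31.4 and 33.4 RPKM in Y1cKO. H2-Ob had 43.1 and 42.1 RPKM in Y1CTL and 46.8 and 53.9 RPKM in Y1cKO, and H2-Oa had 20.3 and 25.0 RPKM in Y1CTL and 31.0 and 31.1 RPKM in Y1cKO. H2-Eb2 had 23.4 and 24.6 RPKM in Y1CTL and 24.4 and 31.6 RPKM in Y1cKO. H2-Oa and H2-Ob, at or near 0 in 3 RNA-seq libraries, thus had 138 to 465 reads each in every Ribo-seq library. The class took 0.663 to 0.748% of Ribo-seq reads. B cell markers summed to 491 to 631 RPKM and T cell markers to 378 to 501 RPKM in all 4 Ribo-seq libraries, dendritic cell markers to 112 to 119 RPKM and macrophage markers to 1394 to 1747 RPKM.

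**Figure D2:**
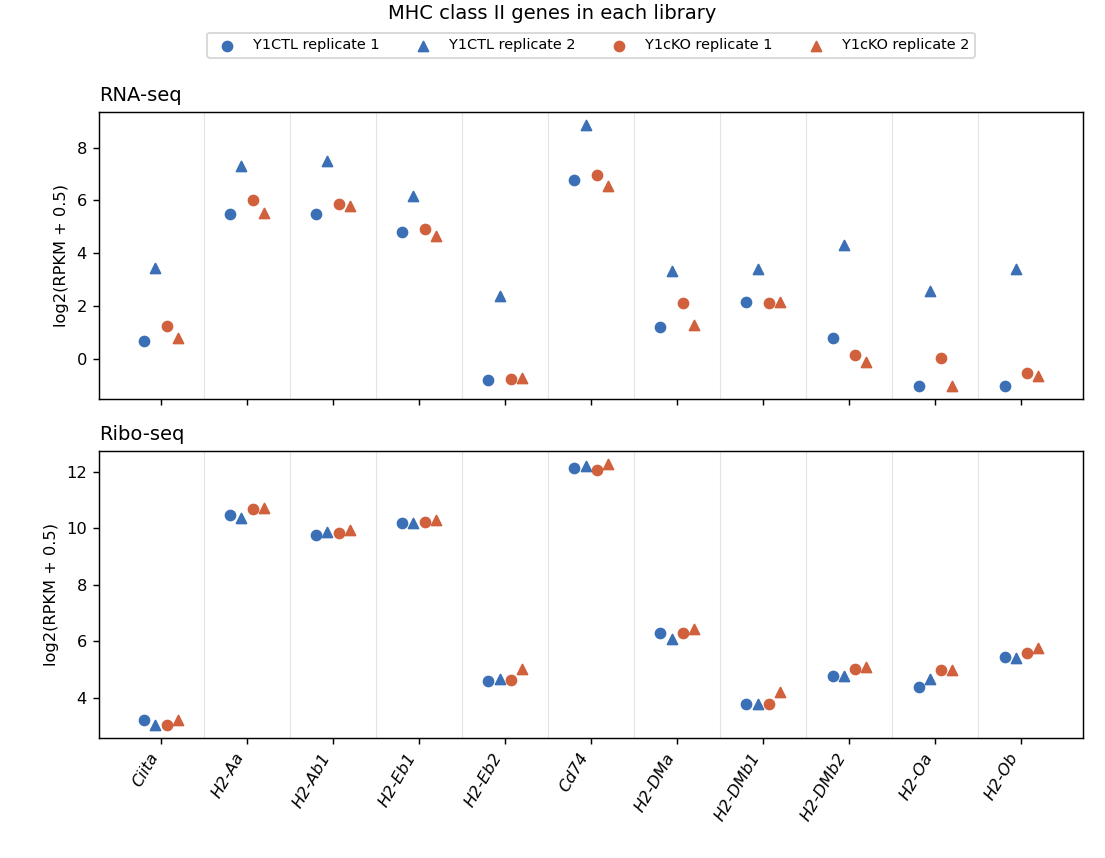
Class II genes as log2(RPKM + 0.5) in each library, RNA-seq above and Ribo-seq below (the vertical scales differ), blue for Y1CTL and orange for Y1cKO, circles for replicate 1 and triangles for replicate 2. In RNA-seq the blue triangle tops every gene, and in Ribo-seq the 4 libraries lie close together.

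By genotype, all 11 class II genes had a higher Ribo-seq mean in Y1cKO, as did 51.5% of all genes tested. The log2 fold changes of the 11 had a median of 0.19 beside 0.01 over all genes. In 6 of the 11 (H2-Aa, H2-Eb1, H2-DMa, H2-DMb2, H2-Oa and H2-Ob) both Y1cKO libraries lay above both Y1CTL libraries (background 15.4%). H2-Oa had the largest difference, log2 fold change 0.45 with a standard error of 0.16, limma adjusted p = 1.00, followed by H2-Aa at 0.29 (standard error 0.19) and H2-DMb2 at 0.28 (standard error 0.13, adjusted p = 1.00 from limma). H2-Ab1, at 0.08, and H2-Eb1, at 0.07, differed by less than their standard errors of 0.17 and 0.18. The B cell marker sum moved the same way in Ribo-seq, 518 and 491 RPKM in Y1CTL and 575 and 631 RPKM in Y1cKO, and its part in the difference was not tested. Without Y1cKO replicate 2 the class II median was 0.04 and 8 of 11 genes were higher in Y1cKO, and without Y1cKO replicate 1 it was 0.30 with 11 of 11.

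Set as Ribo-seq over RNA-seq, the class II median lay above that of all genes in each pair. The gap was smallest against the control library that stood apart. Over the same 8 genes the median log2 ratio was 4.61 for replicate 1 and 2.56 for replicate 2 of Y1CTL, and 4.42 and 5.17 for Y1cKO, while all genes that passed had 1.02, 0.97, 0.73 and 0.90. Over the RNA-seq mean without Y1CTL replicate 2, the mean Ribo-seq level was 43.9-fold for H2-Eb1, 42.2-fold for Cd74, 5.82-fold for Ciita and 3.65-fold for H2-DMb1. The assays use different gene lengths and library chemistry, so the ratio is a description beside that of all genes. Their marker levels differed too. B cell markers summed to 491 to 631 RPKM in Ribo-seq and 1.21 to 1.72 RPKM in RNA-seq without Y1CTL replicate 2. For T cell markers it was 378 to 501 RPKM against 1.58 to 3.20 RPKM, and for adipocyte markers 39758 to 49116 RPKM against 10586 to 12922 RPKM. The part of lymphocyte content in the class II ratios and TE was not tested. For TE, 3819 of the 11505 genes that passed without Y1CTL RNA-seq replicate 2 were higher in Y1cKO. The 8 class II genes were all higher, with a median of 0.88 (-0.18 over all genes that passed in this way). With the other 3 class II genes the median was 1.07 (-0.17 over all genes tested). Among them were Cd74 at 1.08 (standard error 0.82, adjusted p = 0.651 from limma) and H2-Aa at 0.93 (standard error 0.72). H2-DMb2 had the largest TE difference, log2 fold change 2.81 with a standard error of 1.31, limma adjusted p = 0.563. Without replicate 2 of Y1CTL in both assays the class II median was 0.03, with 4 of 8 genes higher, and without replicate 1 it was 2.09 and limma called 13 members, all 11 of class II and H2-M2 and H2-Q10, among 8.14% of all genes, the 4 genes tested through replicate 2 included.

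Ratios between partner chains were set beside each other in both assays. H2-Aa over H2-Ab1, which pair one to one in the molecule, was 0.832 to 1.13 in RNA-seq and 1.42 to 1.80 in Ribo-seq. H2-DMb2 over H2-DMb1 spanned 0.107 to 1.90 in RNA-seq, highest in Y1CTL replicate 2, and 1.89 to 2.39 in Ribo-seq. Cd74 over the sum of H2-Ab1 and H2-Eb1 was 1.18 to 1.87 in RNA-seq and 1.99 to 2.23 in Ribo-seq.

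Class I genes did not all stand high in Y1CTL RNA-seq replicate 2 as class II genes did. B2m (ENSMUSG00000060802), beta-2 microglobulin, had 4428 and 2249.6 RPKM in Y1CTL and 2009.8 and 1801 RPKM in Y1cKO by RNA-seq. Here Y1CTL replicate 1 was the high library. The Y1cKO pair lay wholly under the Y1CTL pair (background 10.7%, log2 fold change -0.73 with a standard error of 0.49, limma adjusted p = 0.560). In Ribo-seq B2m had 12185 and 11473 RPKM in Y1CTL and 10349 and 10678 RPKM in Y1cKO. The Y1cKO pair was again the lower one (background 14.1%, log2 fold change -0.17 with a standard error of 0.31, limma adjusted p = 1.00). The share of all genes with this order in both assays is not given, so the repeat has no background. H2-K1 (ENSMUSG00000061232) and H2-D1 (ENSMUSG00000073411), the classical heavy chains of this strain, are near-identical over long stretches to each other and to other class I genes, so their separate values are uncertain. H2-K1 had 359 and 294 RPKM in Y1CTL and 496 and 345 RPKM in Y1cKO by RNA-seq, and H2-D1 had 436 and 275 RPKM in Y1CTL and 632 and 404 RPKM in Y1cKO. Y1cKO replicate 1 was the highest library for both and Y1CTL replicate 2 the lowest, and the groups overlapped (0.35 for H2-K1, standard error 0.28, and 0.54 for H2-D1, standard error 0.36). By Ribo-seq H2-K1 had 1138 and 1162 RPKM in Y1CTL and 1012 and 1154 RPKM in Y1cKO and H2-D1 had 785 and 901 RPKM in Y1CTL and 723 and 838 RPKM in Y1cKO, with log2 fold changes of -0.09 and -0.11, each smaller than its standard error of 0.18 and 0.18.

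A sum over the heavy chains does not depend on how reads were split among copies, if each read went to a single copy. Reads dropped, or counted for several copies, would change the sum, and how they were handled is not stated. The 19 heavy chain genes together had 0.166% and 0.134% of the reads in Y1CTL and 0.232% and 0.160% in Y1cKO by RNA-seq. In Ribo-seq they had 0.278% and 0.284% in Y1CTL and 0.249% and 0.282% in Y1cKO. The groups overlapped in both assays, with a log2 ratio of Y1cKO over Y1CTL of 0.38 in RNA-seq and -0.08 in Ribo-seq, and leaving out single libraries moved the first over 0.09 to 0.63. H2-K1 and H2-D1 made up 72.0 to 82.9% of the heavy chain RPKM in RNA-seq and 76.0 to 80.1% in Ribo-seq. B2m over the summed heavy chains ranged over 1.48 to 4.56 in RNA-seq, highest in Y1CTL replicate 1, and over 4.17 to 4.82 in Ribo-seq.

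Of the other heavy chain genes, the 4 with the highest Ribo-seq means were H2-T23, H2-Q10, H2-Q4 and H2-Q6. H2-T23, which encodes Qa-1, a ligand of NK cell receptors, had 17.3 and 28.3 RPKM in Y1CTL and 28.3 and 18.7 RPKM in Y1cKO by RNA-seq and 166 and 150.0 RPKM in Y1CTL and 167 and 176 RPKM in Y1cKO by Ribo-seq. H2-Q10, a secreted class I molecule best known from liver, had 51.0 and 26.0 RPKM in Y1CTL and 58.0 and 53.4 RPKM in Y1cKO by RNA-seq and 122 and 101 RPKM in Y1CTL and 95 and 103 RPKM in Y1cKO by Ribo-seq. Both Y1cKO libraries were above both Y1CTL libraries for H2-Q10 in RNA-seq, where Y1CTL replicate 2 was the lowest. H2-Q4 had 21.3 and 34.8 RPKM in Y1CTL and 43.5 and 34.0 RPKM in Y1cKO by RNA-seq and 78.7 and 81.4 RPKM in Y1CTL and 72.9 and 81.4 RPKM in Y1cKO by Ribo-seq. H2-Q6, of the Qa-2 family, had 24 and 39.7 RPKM in Y1CTL and 23.3 and 15.6 RPKM in Y1cKO by RNA-seq and 83.2 and 56.6 RPKM in Y1CTL and 61.1 and 73.6 RPKM in Y1cKO by Ribo-seq, with both Y1cKO libraries the lower pair in RNA-seq alone. H2-T24, a nonclassical gene, had 2.78 and 6.19 RPKM in Y1CTL and 3.0 and 3.26 RPKM in Y1cKO by RNA-seq, where Y1CTL replicate 2 was the highest. In Ribo-seq it had 20.4 and 16.2 RPKM in Y1CTL and 13.4 and 12.1 RPKM in Y1cKO, with the Y1cKO pair wholly under the Y1CTL pair (log2 fold change -0.50 with a standard error of 0.17, limma adjusted p = 1.00).

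A pair of class I genes, H2-T22 and H2-T10, chosen after their values were seen, was lower in Ribo-seq than in RNA-seq. H2-T10 failed the Ribo-seq filter. Class I genes tested in both assays, other than H2-T22, had the opposite order by their means. How reads shared by the pair were placed in each assay is not stated, and its part in this order was not tested. H2-T22, whose product is recognised by gamma delta T cells, had 34.9 and 31.7 RPKM in Y1CTL and 42.9 and 36.1 RPKM in Y1cKO by RNA-seq and 7.78 and 5.85 RPKM in Y1CTL and 7.40 and 9.05 RPKM in Y1cKO by Ribo-seq, 4.84-fold lower over the 4 libraries. H2-T10, a close relative that may share reads with it, had 2.22 and 4.08 RPKM in Y1CTL and 1.99 and 1.81 RPKM in Y1cKO by RNA-seq and 0 to 3 reads per library in Ribo-seq, where the values were 0.148 and 0 RPKM in Y1CTL and 0 and 0.292 RPKM in Y1cKO. H2-T23 from the same subregion had the opposite order, 7.10-fold higher in Ribo-seq. H2-M2, another nonclassical gene named after its values were seen, had 28 reads in Y1CTL RNA-seq replicate 2 and 0 in the other 3 RNA-seq libraries, at least 7.44-fold more than the limit of 3 reads in Y1CTL replicate 1, and 25.2 and 16.1 RPKM in Y1CTL and 13.4 and 16.9 RPKM in Y1cKO by Ribo-seq. H2-Bl, H2-M10.1, H2-M5, H2-Q1, H2-Q2 and H2-T3 had at most 4 reads in any RNA-seq library and failed the filter there, and H2-M3, H2-M9 and H2-Q7 lay between 0 and 40.9 RPKM by RNA-seq. H2-Q7, a near copy of H2-Q6 that may share its reads, had 18.7 and 40.9 RPKM in Y1CTL and 26.9 and 19.3 RPKM in Y1cKO by RNA-seq and 76.0 and 57.3 RPKM in Y1CTL and 70.9 and 68.5 RPKM in Y1cKO by Ribo-seq, and the same library was the highest for both genes in each assay.

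Among the peptide supply genes Tapbp had an unadjusted p under 0.05 in RNA-seq by limma, and the TAP subunits did not. Tapbp, which encodes tapasin, the bridge between TAP and the heavy chain, had 60.9 and 58.5 RPKM in Y1CTL and 97.3 and 75.8 RPKM in Y1cKO by RNA-seq. Both Y1cKO libraries lay above both Y1CTL libraries, as 36.9% of all genes did (log2 fold change 0.52 with a standard error of 0.20, limma adjusted p = 0.413), and the order was gone in Ribo-seq, where Tapbp had 174 and 166 RPKM in Y1CTL and 183 and 169 RPKM in Y1cKO (log2 fold change 0.05 with a standard error of 0.14, limma adjusted p = 1.00). Its TE difference was -0.47 (standard error 0.23, adjusted p = 0.563 from limma). With libraries scaled to the same median, Tapbp no longer had an unadjusted p under 0.05 in RNA-seq, and H2-Q6 and Tap1 did. The share over all genes at that unadjusted p is not given for this scaling, so these have no background. Tap1 had 15.8 and 19.5 RPKM in Y1CTL and 15.3 and 11.5 RPKM in Y1cKO by RNA-seq and 38.7 and 37.6 RPKM in Y1CTL and 39.2 and 42.8 RPKM in Y1cKO by Ribo-seq, so both Y1cKO libraries were lower in the first and higher in the second (-0.40 and 0.10 on the log2 scale). Tap2 had 17.9 and 18.6 RPKM in Y1CTL and 20.0 and 16.1 RPKM in Y1cKO by RNA-seq and 81.1 and 90.3 RPKM in Y1CTL and 75.8 and 81.0 RPKM in Y1cKO by Ribo-seq. Tap1 over Tap2, whose products form the transporter together, was 0.714 to 1.05 in RNA-seq and 0.417 to 0.529 in Ribo-seq.

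**Figure D3:**
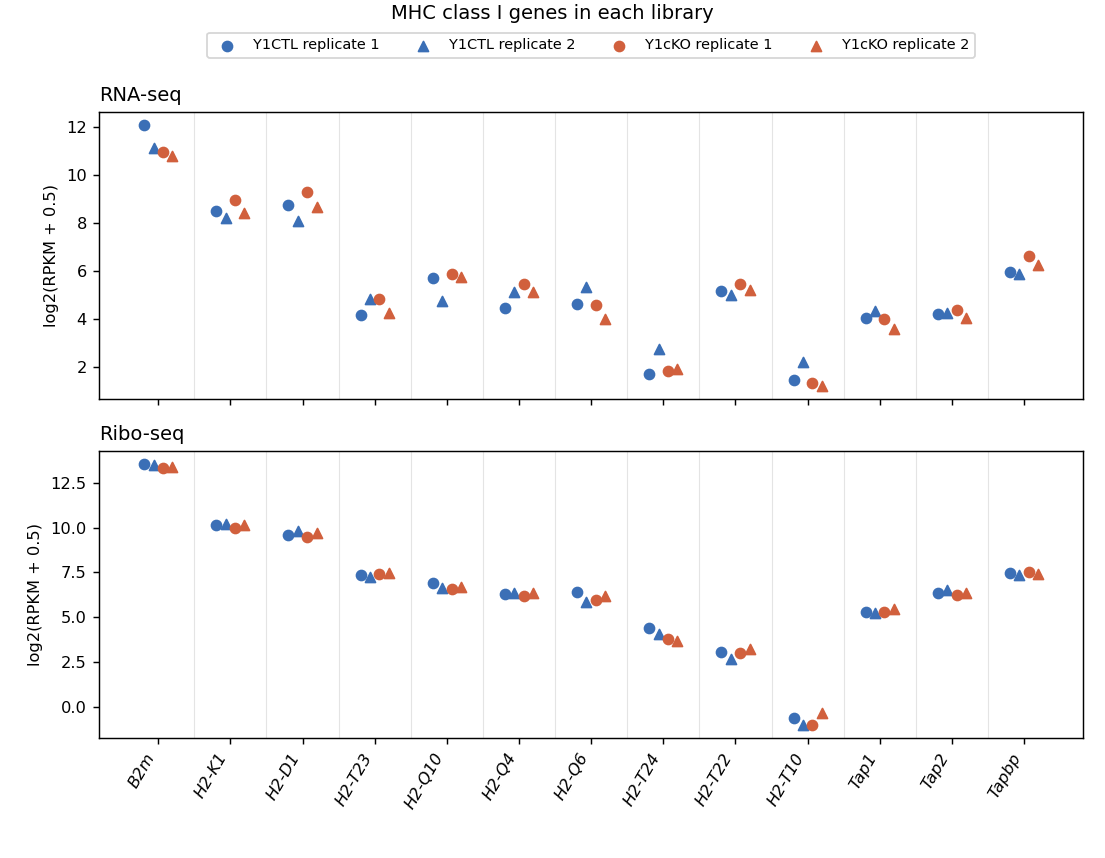
Class I genes as log2(RPKM + 0.5) in each library, RNA-seq above and Ribo-seq below (the vertical scales differ), with colors and shapes as for class II (blue Y1CTL, orange Y1cKO, circles replicate 1, triangles replicate 2). B2m, H2-K1 and H2-D1 are the highest in both assays, and H2-T22 and H2-T10 drop from RNA-seq to Ribo-seq.

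Across the class, 8 of the 17 class I genes tested were higher and 9 lower in Y1cKO by RNA-seq, with a median of -0.02. Without H2-M2, which passed through Y1CTL replicate 2, so that the filter favored a lower Y1cKO mean, it was 8 and 8 with a median of 0.01. Over all genes tested in RNA-seq 67.2% were higher, with a median of 0.17. By Ribo-seq 6 of 17 were higher and 11 lower, with a median of -0.06 (51.5% higher and 0.01 over all genes). In RNA-seq 4 lay wholly above and 5 wholly below the Y1CTL libraries (backgrounds 36.9% and 10.7%). In Ribo-seq 3 lay wholly above and 4 wholly below (backgrounds 15.4% and 14.1%). For TE 8 of 16 were higher, with a median of -0.04 (34.7% higher and -0.17 over all genes). In Y1CTL RNA-seq replicate 2, 7 of the 16 that passed in the other 3 libraries topped those (background 20.9%), and over the 16 the median log2 difference from their mean was 0.09. The coefficient of variation over 4 libraries had a median of 30.5% in RNA-seq and 9.33% in Ribo-seq.

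**Figure D4:**
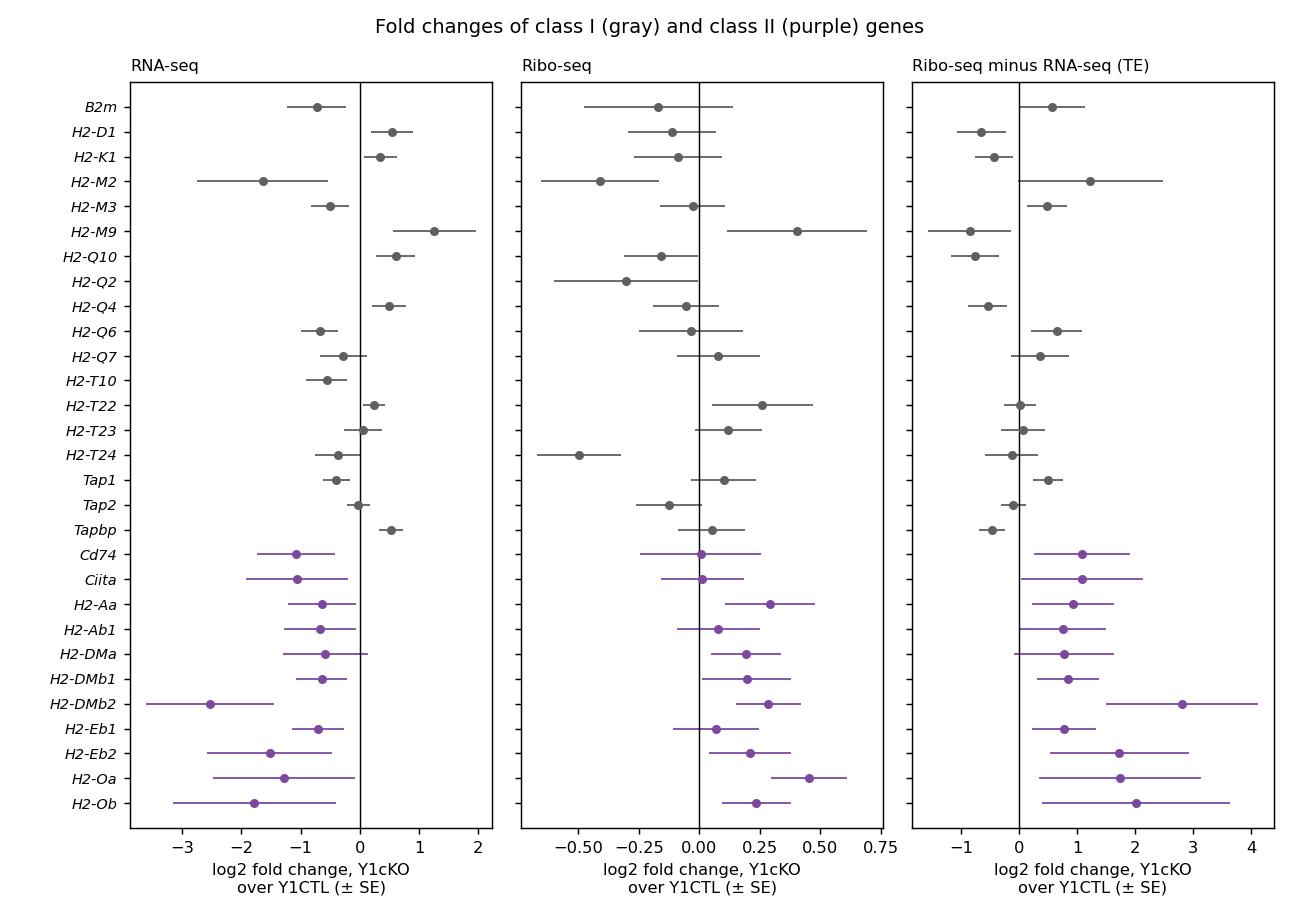
Log2 fold change of Y1cKO over Y1CTL with its standard error from limma, for class I (gray) and class II (purple) genes, in RNA-seq, Ribo-seq and for TE (each panel has its own horizontal scale). The 11 class II points, 3 of them genes tested in RNA-seq through 1 control library, lie left of 0 in RNA-seq and right of 0 in Ribo-seq and TE, and class I points lie on both sides.

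The wider pathway was read from 3 gene lists. Of 12 genes for class I loading and peptide supply, among them the immunoproteasome subunits Psmb8 and Psmb9 and the class I coactivator Nlrc5, 7 were higher and 5 lower in Y1cKO by RNA-seq and 5 were higher and 7 lower by Ribo-seq, with 0 at an adjusted or unadjusted p under 0.05 by limma. Nlrc5 had 9.77 and 13.5 RPKM in Y1CTL and 10.2 and 10.2 RPKM in Y1cKO by RNA-seq and 2.55 and 3.21 RPKM in Y1CTL and 2.38 and 2.33 RPKM in Y1cKO by Ribo-seq, lower in the second assay as H2-T22 was. Of 9 genes for class II processing and control, 7 passed the filter, and 5 of these were lower by RNA-seq and 5 higher by Ribo-seq, with 0 at an adjusted or unadjusted p under 0.05 by limma. Y1CTL RNA-seq replicate 2 was the highest RNA-seq library for 4 of these 7 (22.9% of all genes tested) and the lowest for 1, Ctsl. The 4 were Rfx5, at 5.02 RPKM against 3.03 to 4.61 RPKM, and 3 with a wider gap, namely Ctss, the protease that trims Cd74 (3.36 and 36.0 RPKM in Y1CTL and 13.3 and 4.90 RPKM in Y1cKO), Cd83, which protects class II from turnover (0.714 and 7.56 RPKM in Y1CTL and 1.69 and 0.909 RPKM in Y1cKO), and March1, the ubiquitin ligase that drives that turnover (0.538 and 3.37 RPKM in Y1CTL and 0.523 and 0.50 RPKM in Y1cKO). Of 6 class I-like genes outside the H2 region, 5 passed in RNA-seq and all 5 were higher in Y1cKO (67.2% of all genes tested were), 2 of them at an unadjusted p under 0.05 (background 11.8%), Mr1, which presents vitamin metabolites, and Fcgrt, the neonatal Fc receptor. Mr1 had 13.2 and 7.54 RPKM in Y1CTL and 27.8 and 19.8 RPKM in Y1cKO by RNA-seq (log2 fold change 1.19 with a standard error of 0.32, limma adjusted p = 0.402) and 31.6 and 55.6 RPKM in Y1CTL and 34.5 and 45 RPKM in Y1cKO by Ribo-seq. Fcgrt had 56.9 and 39.0 RPKM in Y1CTL and 77.0 and 69.3 RPKM in Y1cKO by RNA-seq, with an adjusted p of 0.413 from limma. Y1CTL replicate 2 was the lowest RNA-seq library for 4 of the 5, Mr1 and Fcgrt among them. In Ribo-seq 5 of the 6 were lower in Y1cKO, 0 at an adjusted or unadjusted p under 0.05 by limma, and for TE all 5 tested were lower (34.7% of all genes tested were higher), Mr1 and Fcgrt at an unadjusted p under 0.05 (background 8.66%) with an adjusted p of 0.563 each. H2-Ke6, the member outside antigen presentation, had 30.1 and 22.6 RPKM in Y1CTL and 27.4 and 35.3 RPKM in Y1cKO by RNA-seq and 104 and 101 RPKM in Y1CTL and 111 and 100.2 RPKM in Y1cKO by Ribo-seq, and the groups overlapped in both.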

How the data were processed

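RNA-seq and Ribo-seq libraries of iWAT, 2 per genotype and assay, were grouped by their sample labels. The authors trimmed adaptors, masked low-quality sequence, used HISAT2 2.2.1 and the mm8 genome, and deposited gene tables in RPKM. The counting tool, annotation and strand setting were not given in the sources used here, and the processing notes name DESeq2 with no role. All values were whole multiples of 1 read (tolerance 0.01 read), which gave back reads and depth, with intervals and floors covering no more than counting error. Genes without a Ribo-seq entry counted as 0.

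Log2(RPKM + 0.5) was fitted in limma 3.58.1 under R 4.3.3 (intensity trend on), with Benjamini-Hochberg adjustment over all genes tested. TE was the interaction of assay and genotype over 8 libraries. Members, gene lists and tests were chosen with earlier results of these data known. All 8 values are given for the classical chains, class II chains and partners, the 4 other class I genes highest in Ribo-seq and members with an unadjusted p under 0.05. The lists held 12, 9 and 6 pathway genes (Ifi30 and Rfxap had no row under those symbols) and 8 markers each for B cells, T cells, dendritic cells, macrophages, endothelium, adipocytes and skeletal muscle. Replicates differed beyond sampling noise (chi-square per degree of freedom 12.3 to 36.2). Fits were run on simulated data in which no library stood apart. That run does not cover a library such as Y1CTL RNA-seq replicate 2. Alternatives covered the pseudocount (0.1 and 1), filter, scaling, trend, voom with TMM scaling on recovered reads, a replicate block and each replicate left out. Column names and labels disagree on the replicate numbers of the Y1cKO RNA-seq libraries, and the labels were followed. Tables and figures used Python 3.11.15, pandas 2.3.3 and matplotlib 3.10.9.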

Additional observations from a re-analysis of the deposited data

Results flagged for a closer look

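H2-DMb2 and Tap1 had both Y1cKO libraries below both Y1CTL libraries in RNA-seq and above them in Ribo-seq. Of the 11792 genes tested in both assays, 1.53% showed this order and 5.00% the reverse one. The flag took either order. For H2-DMb2 the RNA-seq order rested on 7 reads in Y1CTL replicate 1 against 11 and 10 in the deeper Y1cKO libraries. The difference between the assays was 2.81 on the log2 scale for H2-DMb2 (standard error 1.31, adjusted p = 0.563 from limma) and 0.50 for Tap1 (standard error 0.26, adjusted p = 0.579 from limma), and neither passed the test. For H2-DMb2 the difference was 1.05 to 4.56 with single replicates left out, and for Tap1 it was 0.23 to 0.76.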

How the results depend on the processing

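The count of members called moved from 0 to 12 in RNA-seq and from 0 to 13 for TE without Y1CTL replicate 1, and was 0 in every other alternative run, all of those for Ribo-seq included. With single replicates left out, the class II median log2 fold change ranged over -2.12 to 0.12 in RNA-seq, 0.038 to 0.30 in Ribo-seq and 0.030 to 2.09 for TE, and the class I median over -0.28 to 0.16, -0.17 to -0.0051 and -0.28 to 0.28. The summed heavy chain ratio ranged over 0.09 to 0.63 in RNA-seq and -0.17 to 0.0051 in Ribo-seq, and leaving out H2-T and H2-M genes moved it by less than the spread between replicates. Signs turned for H2-Aa (-1.53 to 0.26), H2-Ab1 (-1.66 to 0.32) and Ciita (-2.44 to 0.31) in RNA-seq and H2-Aa in TE (-0.011 to 1.87), each without Y1CTL replicate 2, and for H2-K1 (-0.18 to 0.0057) and Tapbp (-0.0065 to 0.11) in Ribo-seq, both without Y1cKO replicate 1. Of 333 values of single genes under an alternative, these 6 turned sign and 9 passed the adjusted p, all 9 without Y1CTL replicate 1. The replicate block cannot move the medians in this balanced design (-1.06, 0.19 and 1.07 for class II), and with it 0 members were called. Over genes averaging 0.5 RPKM without Y1CTL RNA-seq replicate 2 (same fit), a choice made after seeing the data, the class I and class II medians were 0.01 and -0.69 in RNA-seq and -0.10 and 0.88 for TE. No label says that a number marks 1 animal, and the RNA-seq and Ribo-seq deviations of libraries with 1 number correlated at -0.14 in Y1CTL and -0.24 in Y1cKO. Exchanging the RNA-seq numbers of Y1cKO, or of both genotypes (the latter chosen after seeing the data), also called 0 members for TE. Scaling libraries to the same median moved the median of all genes in RNA-seq from 0.17 to 0.01. Pseudocounts of 0.1 and 1 for the Ribo-seq over RNA-seq level, chosen after seeing the data, moved the class medians by less than their spread over pairs. Depth limits the low genes, since 3 reads in Y1CTL RNA-seq replicate 1 came to 0.697 RPKM for H2-Oa.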
